A study of Mus musculus with 20 samples.

Results

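Solute carriers (SLC genes) encode the membrane proteins that move amino acids, sugars, vitamins, ions, metals, fatty acids and other solutes into, out of and within cells. They were taken from the normalized count table as every symbol made of Slc, a family number, the letter a and a member number, with a mean of at least 20 normalized counts over the 20 libraries. The pattern matched 347 symbols, of which 165 averaged less and 7 were left out by name (Slc7a11, Slc3a2, Slc2a1, Slc2a3, Slc2a4, Slc16a1 and Slc16a3), leaving 175 members of 27179 genes. Just inside the threshold were Slc22a23 (20.9), Slc46a3 (21.5) and Slc40a1 (21.6), and just outside it Slc25a21 (19.6), Slc25a29 (19.2) and Slc29a2 (18.9). Without the libraries of a single group, the mean of 6 members would have been under 20: Slc22a23 and Slc25a13 without DPP4+ cells at 6 °C, Slc1a6 and Slc40a1 without DPP4+ cells at 22 °C, Slc12a5 without DPP4- cells at 22 °C, and Slc11a1 without DPP4- cells at either temperature. The same held for Slc6a12 and Slc38a1 without both DPP4+ groups and for Slc6a7, Slc45a3 and Slc7a15 without both DPP4- groups. These members were admitted by the cells in which they were high, so their differences in that direction are descriptions and their tests no support. The members belonged to 42 families, and 5 of them match the pattern but are no transporters (Slc2a4rg-ps, Slc4a1ap, Slc7a6os, Slc9a3r1 and Slc9a3r2). By substrate there were 36 carriers of the SLC25 family, which sit mostly in the inner mitochondrial membrane, 32 transporters of amino acids and peptides, 25 of metals and heme, 24 of inorganic ions and 17 of sugars and polyols. The smaller classes were organic cations, anions and neurotransmitters with 11 members, vitamins, nucleosides and nucleobases with 10, carboxylates and sulfated steroids with 8, and fatty acids with choline and acetyl-CoA with 7.

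RNA-seq had been made from PDGFRb+ cells of inguinal white adipose tissue, a subcutaneous fat depot, of male C57BL/6 mice. Flow cytometry had separated them into DPP4+ and DPP4- adipocyte progenitor cells (APCs), DPP4 being a surface peptidase that marks an early progenitor state. The 4 groups of 5 libraries were DPP4+ cells of mice held at 6 °C for 24 h, DPP4+ cells of mice at 22 °C, DPP4- cells of mice held at 6 °C for 24 h and DPP4- cells of mice at 22 °C. The labels do not say that the 5 libraries of a group came from separate mice, so p-values measure the spread between these libraries, which may in part be technical. In bulk RNA of this kind, fewer cells that express a gene and less RNA per cell cannot be told apart.

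Plasma membrane carriers set which nutrients a cell can take up, carriers of lysosomes and vesicles return or store solutes, and SLC25 carriers exchange metabolites, nucleotides and phosphate between the mitochondrial matrix and the cytosol. In adipose tissue, cold acts through noradrenaline and beta-adrenergic receptors, which raise cyclic AMP, and the cyclic AMP response element (CRE) is the DNA sequence bound by the CREB factors of that pathway. Carriers of fatty acids, creatine and iron serve adipocytes, and Slc36a2, a proton-coupled carrier of small amino acids, is known as a surface marker of brown adipocytes.

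Reads assigned to genes ranged from 8487790 to 18753821 per library, and a normalized count is a gene's reads divided by a single factor per library. Dpp4 itself averaged 10035 ± 2091 normalized counts in DPP4+ cells at 6 °C and 8546 ± 1158 at 22 °C, against 61.3 ± 42.4 in DPP4- cells at 6 °C and 67.9 ± 21.6 at 22 °C (mean ± SD, n = 5, as for every such value below). Pdgfrb averaged 1505 ± 80.7 in DPP4+ cells at 6 °C and 2942 ± 226 at 22 °C, against 4124 ± 543 in DPP4- cells at 6 °C and 4126 ± 333 at 22 °C. The members took 0.877 to 0.947% of a library's normalized counts in DPP4+ cells at 6 °C and 0.849 to 0.894% at 22 °C, against 0.781 to 0.844% in DPP4- cells at 6 °C and 0.748 to 0.793% at 22 °C. Library 5 of the DPP4+ cells at 6 °C stood apart with the lowest sample weight of the 20 libraries (0.359), and it was often the lowest or highest of its group. In the DPP4+ cold comparison, 47 to 52 members were higher and 39 to 47 lower whichever library was left out.

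Marker genes of other cell types moved with the groups, and their part in the member values was not tested. Summed markers of pericytes and smooth muscle (6 genes) were 2580 to 4246 in DPP4+ cells at 6 °C and 5824 to 7360 at 22 °C, against 3270 to 4237 in DPP4- cells at 6 °C and 2090 to 3434 at 22 °C. Those of mature adipocytes (7 genes) were 482 to 929 in DPP4+ cells at 6 °C and 1150 to 1563 at 22 °C, against 147 to 376 in DPP4- cells at 6 °C and 32.4 to 194 at 22 °C. Those of macrophages (6 genes) were 95.0 to 154 in DPP4+ cells at 6 °C and 70.9 to 88.7 at 22 °C, against 72.4 to 297 in DPP4- cells at 6 °C and 140 to 172 at 22 °C. The DPP4+ groups did not overlap in these 3 sums, and the DPP4- groups did overlap. Sums for Schwann cells (4 genes) were 8.62 to 17.1 in DPP4+ cells at 6 °C and 21.1 to 36.2 at 22 °C, against 80.4 to 263 in DPP4- cells at 6 °C and 189 to 499 at 22 °C, and those for endothelium (6 genes) 251 to 348 and 51.6 to 162, against 103 to 342 and 204 to 320. Lymphocyte, epithelial and erythroid markers summed to at most 6.57 in DPP4+ libraries, with Cd3e, Cd3g, Nkg7, Krt18 and Hba-a1 listed at 0 in all cold DPP4+ libraries. Of the tested markers, limma called 2 of 6 of pericytes and smooth muscle higher and 2 lower in the cold in DPP4+ cells. It called 1 of 3 of macrophages (Csf1r) and 1 of 5 of endothelium higher and 2 of 3 of Schwann cells lower. The 5 tested adipocyte markers did not pass (log2 differences -1.04 to -0.14). Of all genes, 23.5% were higher and 22.6% lower, so these small counts do not by themselves set the markers apart. In DPP4- cells limma called the adipocyte markers Plin1 (log2 difference 2.09) and Retn (0.95) and 1 mesothelial marker higher, where 1.98% of all genes were. Of the 8 mesenchymal progenitor markers, Pdgfra and Pdgfrb were called lower in the cold in DPP4+ cells (log2 differences -1.13 and -0.96). Pdgfra averaged 5287 ± 462 in DPP4+ cells at 6 °C and 11512 ± 419 at 22 °C, against 10676 ± 1323 in DPP4- cells at 6 °C and 9894 ± 641 at 22 °C.

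Promoters of 132 of the 175 members were in a RefSeq table on GRCm38.p6. The letters of the CRE, TGACGTCA, which read the same on both strands, occurred within 250 bases before the start of 3 of these 132 members (2.27%), against 478 of 27025 genes (1.77%). These 3 windows are shown because they are all the members with the full element, and because the 3 genes took different directions in the cold in DPP4+ cells. Slc25a25, a mitochondrial carrier of ATP-Mg and phosphate, rose, Slc38a6, an orphan of the glutamine carrier family, fell, and Slc25a36, a mitochondrial carrier of pyrimidine nucleotides, did not pass the test (log2 difference -0.03). The windows run 5′ to 3′ along the gene's strand, with the full element and every other TGACG or its reverse complement in capitals.
Slc25a25, chr2:32424067-32424316, minus strand, before an internal start: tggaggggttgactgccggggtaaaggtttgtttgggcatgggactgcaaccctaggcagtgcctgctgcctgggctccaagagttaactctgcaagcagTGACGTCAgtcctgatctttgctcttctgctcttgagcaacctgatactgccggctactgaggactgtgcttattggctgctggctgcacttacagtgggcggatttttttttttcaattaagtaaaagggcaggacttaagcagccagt
Slc25a36, chr9:97111042-97111291, minus strand: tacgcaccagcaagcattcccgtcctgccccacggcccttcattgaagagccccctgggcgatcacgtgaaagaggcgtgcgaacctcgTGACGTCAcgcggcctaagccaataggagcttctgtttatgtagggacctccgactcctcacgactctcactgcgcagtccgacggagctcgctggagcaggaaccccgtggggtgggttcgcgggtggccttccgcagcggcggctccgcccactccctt
Slc38a6, chr12:73286598-73286847, plus strand: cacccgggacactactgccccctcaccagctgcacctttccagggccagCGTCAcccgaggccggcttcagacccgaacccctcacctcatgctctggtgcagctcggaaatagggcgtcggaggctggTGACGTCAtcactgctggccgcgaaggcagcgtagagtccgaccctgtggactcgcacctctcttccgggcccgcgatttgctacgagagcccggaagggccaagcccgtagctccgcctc
The full element lay 150 bases before that start of Slc25a25, which has 3 starts in the table, 161 bases before that of Slc25a36 and 121 bases before that of Slc38a6. The core TGACG, on either strand and counting those inside a full element, occurred in 40 of the 132 members (30.3%) and in 19.8% of all genes. It was in the windows of 13 of 34 members that rose in DPP4+ cells in the cold (38.2%), 8 of 33 that fell (24.2%) and 19 of 65 that did not pass (29.2%). These matches describe letters in a window and say nothing about binding.

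In DPP4+ cells, some members of every substrate class were called for cold, where 46.1% of all genes were. At that share, calls in every class do not set the transporters apart from other genes. The monocarboxylate-family carrier Slc16a6 rose 16.5-fold, the vitamin C transporter Slc23a2 2.82-fold and the magnesium carrier Slc41a2 2.51-fold, while the arginine transporter Slc7a2 fell 7.66-fold, the iron exporter Slc40a1 3.72-fold and the glutamate transporter Slc1a3 2.80-fold. Slc40a1 was admitted by the DPP4+ libraries at 22 °C, so its fall is a description. The limma test on log2(normalized count + 1), adjusted by Benjamini-Hochberg over 13057 genes with a threshold of 0.05, called 50 of 175 members higher in the cold (28.6%, where 23.5% of all genes were) and 45 lower (25.7%, where 22.6% of all genes were). The members' median log2 difference was 0.02, against 0.01 for all genes tested. Changes of at least 2-fold were called for 11 members upwards and 10 downwards, where 2.75% and 4.81% of all genes were. The 5 and 5 libraries did not overlap for 46 members higher and 33 lower, where this held for 19.4% and 19.0% of all genes.

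Some classes divided unevenly between higher and lower calls, where 23.5% of all genes were higher and 22.6% lower. Of the SLC25 carriers 16 of 36 were higher (44.4%) and 6 lower, with a median log2 difference of 0.25, and of the metal and heme transporters 11 of 25 were higher (44.0%) and 5 lower, with a median of 0.13. Of the amino acid transporters 6 of 32 were higher (18.8%) and 12 lower, with a median of -0.09, and of the inorganic ion transporters 2 of 24 were higher and 7 lower, with a median of -0.11. These 4 medians kept their sign when libraries were scaled to equal totals and after quantile normalization. Fatty acid and choline transporters had 2 of 7 higher and 4 lower, carboxylate transporters 2 of 8 and 4, organic ion transporters 4 of 11 and 2, sugar transporters 4 of 17 and 2, and vitamin and nucleoside transporters 2 of 10 and 2.

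**Figure D1:**
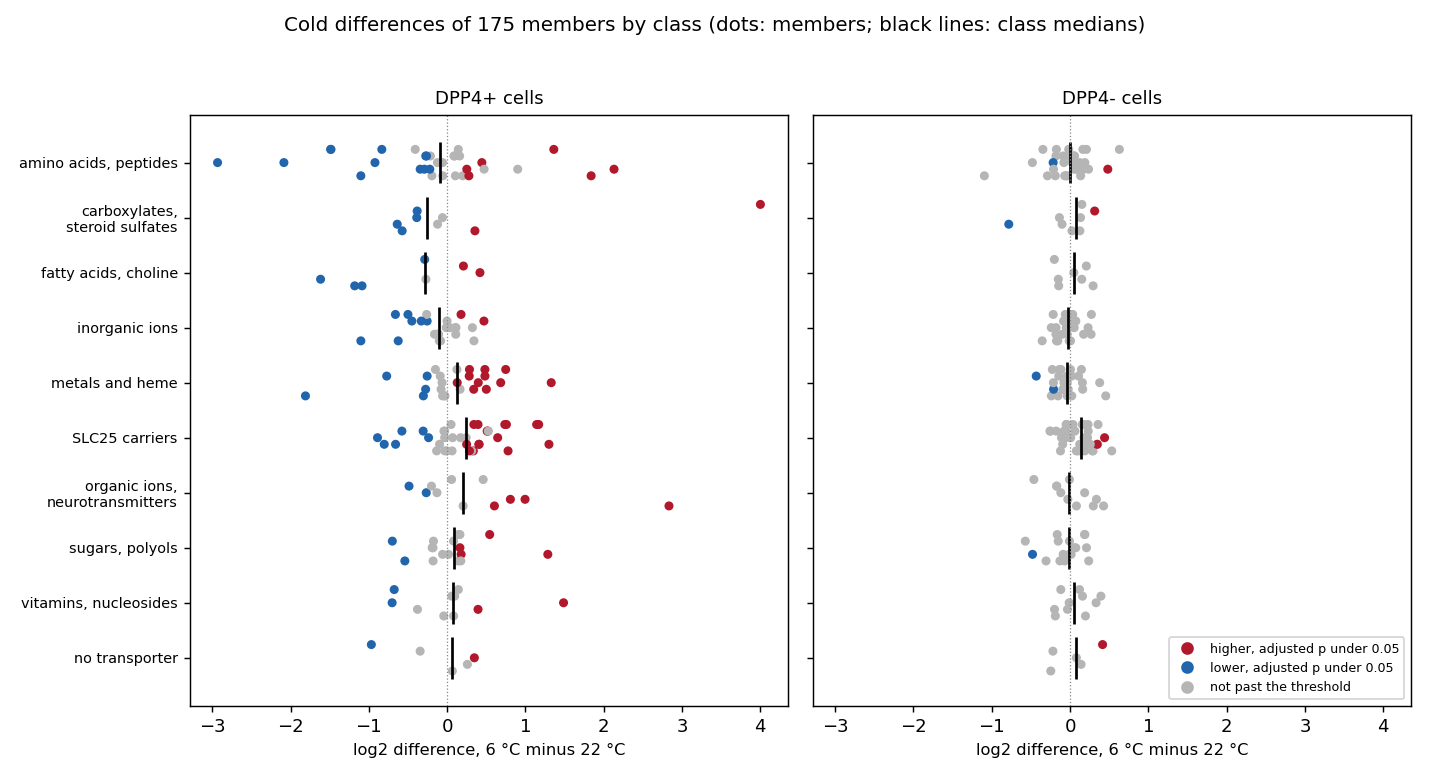
Log2 difference between 6 °C and 22 °C (x axis) of each of the 175 members (dots, coloured where the adjusted p was under 0.05) by substrate class (y axis), in DPP4+ cells and in DPP4- cells, with class medians as black lines. The dots of DPP4+ cells spread from -2.93 to 4.0 and those of DPP4- cells from -1.09 to 0.63.

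Slc16a6 (Entrez 104681, chr11:109450855-109473598 on GRCm38) belongs to the monocarboxylate transporter family and exports ketone bodies from the liver in zebrafish. It had 675, 589, 624, 619.9 and 375 normalized counts in DPP4+ cells at 6 °C, against 26.7, 31.4, 30.4, 45.1 and 41.4 at 22 °C. The groups were far apart, and library 5 was the lowest of the cold ones. The difference (log2 difference 4.0, SE 0.18, adjusted p = 1.9e-14, limma) was the largest of the 175 members. In DPP4- cells Slc16a6 averaged 32.4 ± 8.28 at 6 °C and 28.4 ± 2.52 at 22 °C and did not pass. The cold effects in the 2 populations differed (log2 difference 3.85, SE 0.26, adjusted p = 7.3e-11, limma). An exon of Slc16a6 overlaps Amz2 on the other strand by up to 611 bases, and whether strand was used in the counting is not given in the sources used here. Amz2 averaged 245 in DPP4+ cells at 6 °C and 308 at 22 °C. Exons of 12 further named members overlap those of another annotated gene by 29 to 468 bases, on the other strand for Slc7a2, Slc11a2, Slc16a9, Slc20a1, Slc20a2, Slc25a37, Slc30a1, Slc38a10, Slc43a2 and Slc48a1 and on the same strand for Slc5a3 and Slc25a51. Whether reads were shared was not tested.

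Slc16a9, a carnitine carrier of the same family, fell. It averaged 562 ± 163 in DPP4+ cells at 6 °C and 852 ± 107 at 22 °C, lower in the cold (log2 difference -0.64, SE 0.16, adjusted p = 0.0022, limma) although library 5 lay within the range of 22 °C.

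Amino acid transporters included the largest falls. Slc7a2 (Entrez 11988, chr8:40862341-40922070 on GRCm38), the cationic amino acid transporter CAT2 that takes up arginine, had 70.7, 56.5, 64.1, 52.0 and 43.4 normalized counts in DPP4+ cells at 6 °C, against 469, 449, 404, 480.4 and 396 at 22 °C. All cold libraries lay far below those at 22 °C (log2 difference -2.93, SE 0.17, adjusted p = 1.6e-12, limma). Under the authors' scaling they lay near the level of DPP4- cells, which averaged 73.2 ± 10.9 at 6 °C and 106 ± 35.3 at 22 °C. Of the 4 members of the SLC1 family of glutamate and neutral amino acid transporters, 3 fell, where 22.6% of all genes were lower. Slc1a3, the glutamate transporter of glia and other cells, averaged 72.9 ± 13.0 at 6 °C and 204 ± 15.3 at 22 °C (log2 difference -1.49, SE 0.12, adjusted p = 2.9e-10, limma), and the summed Schwann cell markers given above were also lower in the cold DPP4+ libraries. Slc1a6, another glutamate transporter, averaged 16.3 ± 4.81 and 70.0 ± 8.74, and the libraries did not overlap for either gene. Slc1a6 was admitted by the DPP4+ libraries at 22 °C, so its fall is a description. Slc1a5, which exchanges glutamine and other neutral amino acids, fell by less (log2 difference -0.22, SE 0.07, adjusted p = 0.013, limma), with overlapping libraries.

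Slc36a2 (Entrez 246049, chr11:55158468-55185099 on GRCm38) had 39.7, 30.2, 29.1, 29.8 and 17.2 normalized counts in DPP4+ cells at 6 °C, against 98.9, 81.2, 69.5, 85.2 and 72.7 at 22 °C. All cold libraries lay below all libraries at 22 °C (log2 difference -1.48, SE 0.29, adjusted p = 0.00024, limma), and the same libraries had the lower adipocyte marker sums given above. In DPP4- cells it averaged 37.5 ± 17.8 at 6 °C and 24.1 ± 10.02 at 22 °C and did not pass, with adipocyte marker sums of 147 to 376 and 32.4 to 194. Slc38a6, whose promoter is shown above, fell to 69.9 ± 4.72 in DPP4+ cells at 6 °C, against 151 ± 6.50 at 22 °C (log2 difference -1.10, SE 0.10, adjusted p = 1.5e-09, limma). The proline transporter Slc6a7 averaged 6.85 ± 5.48 and 12.1 ± 3.25, a fall with overlapping libraries at a low level (log2 difference -0.92, SE 0.27, adjusted p = 0.0074, limma).

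Against these falls, 3 amino acid and peptide transporters rose by more than 2-fold. Slc15a3 (Entrez 65221, chr19:10842544-10857915 on GRCm38), a lysosomal carrier of histidine and small peptides, had 90.6, 96.7, 84.5, 78.4 and 83.8 normalized counts in DPP4+ cells at 6 °C, against 11.2, 13.1, 24.6, 21.9 and 30.5 at 22 °C. Every cold library was higher (log2 difference 2.13, SE 0.25, adjusted p = 4.9e-07, limma). Macrophages also express Slc15a3. Of the 6 macrophage markers, Csf1r averaged 88.4 ± 17.8 at 6 °C and 32.0 ± 2.93 at 22 °C and was called higher, while Cd68 averaged 30.7 ± 4.31 and 28.4 ± 5.44 and Mrc1 8.38 ± 4.50 and 8.42 ± 1.27, neither of which passed. The other 3 were too low to be tested, with Adgre1 at 3.86 ± 1.80 and 3.56 ± 1.62, C1qa at 2.62 ± 2.47 and 2.50 ± 2.03 and Ptprc at 3.06 ± 1.03 and 3.47 ± 1.12. An exon overlaps Tmem132a on the other strand by 94 bases, and Tmem132a averaged 623 at 6 °C and 436 at 22 °C.

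Slc6a17 (Entrez 229706, chr3:107467548-107518018 on GRCm38), which loads neutral amino acids into synaptic vesicles of neurons, had 611, 510.2, 516, 502 and 333 normalized counts in DPP4+ cells at 6 °C, against 148, 141, 129.5, 123 and 133 at 22 °C. Every cold library exceeded every library at 22 °C (log2 difference 1.84, SE 0.20, adjusted p = 1.1e-07, limma). The large neutral amino acid carrier Slc43a2 (LAT4) averaged 130.3 ± 25.4 at 6 °C and 49.8 ± 9.26 at 22 °C, also without overlap (log2 difference 1.36, SE 0.16, adjusted p = 2.2e-07, limma). The abundant glutamine transporter Slc38a2 did not pass, with 10088 ± 708 at 6 °C and 9477 ± 1153 at 22 °C.

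**Figure D2:**
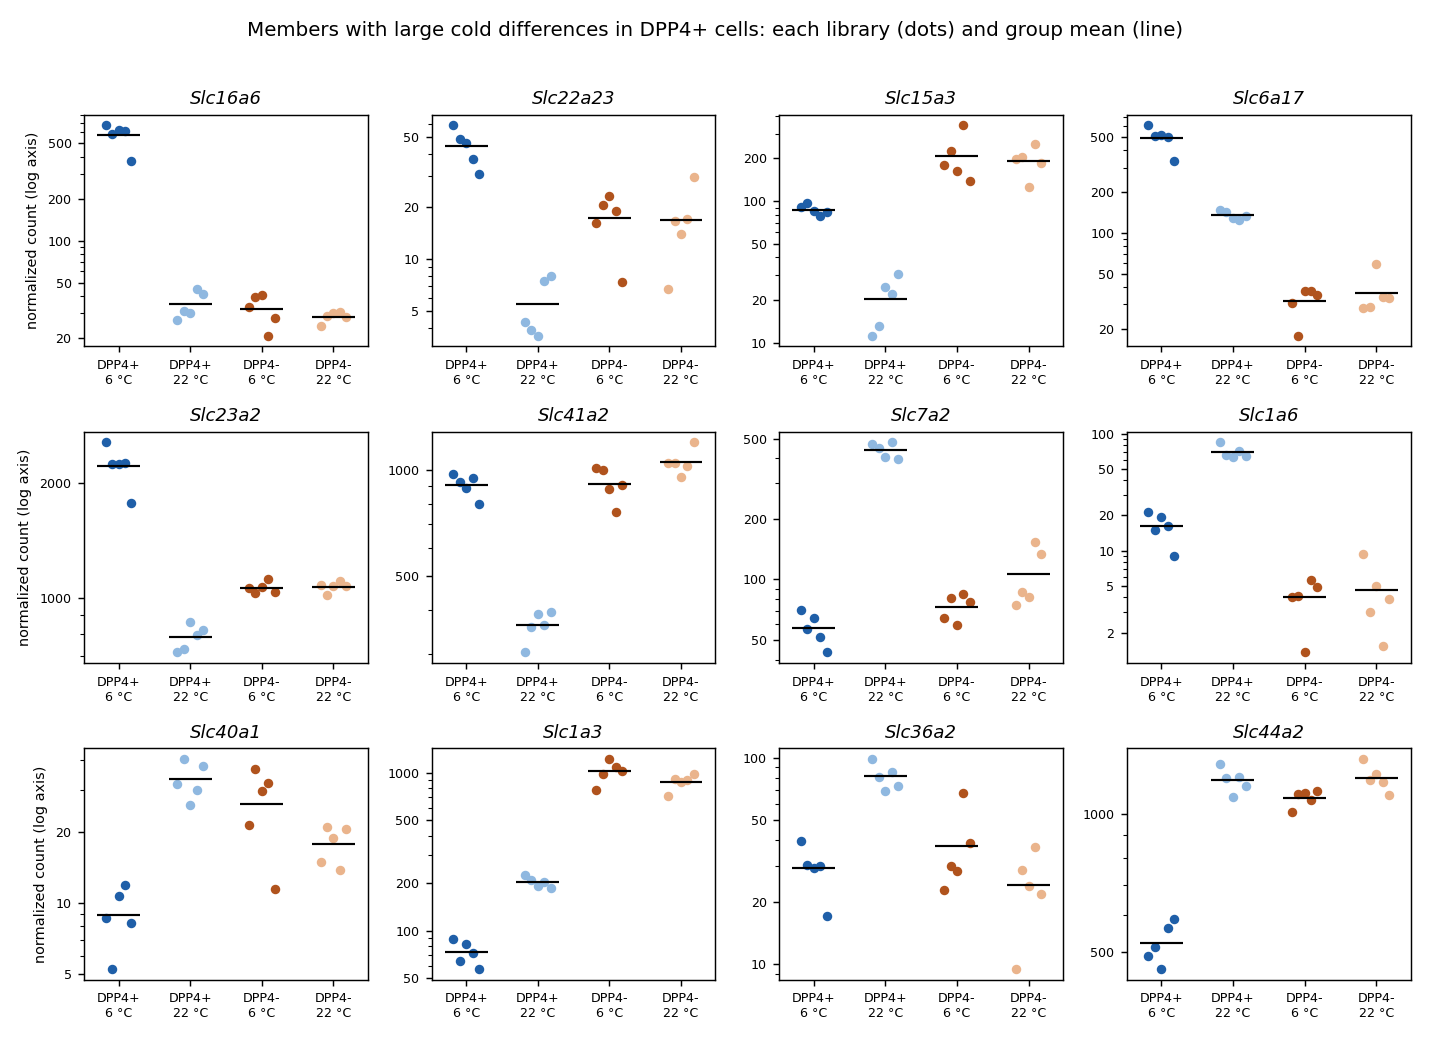
Normalized counts (y axis, log scale) of 12 members in each of the 20 libraries (dots) of the 4 groups (x axis), with group means as lines. In Slc16a6 the DPP4+ libraries at 6 °C sit between 375 and 675, above all others, and in Slc7a2 the DPP4+ libraries at 22 °C sit between 396 and 480, above all others.

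Among the metal transporters, Slc41a2 (Entrez 338365, chr10:83230848-83338037 on GRCm38), a magnesium carrier, had 974, 926, 885, 951 and 799 normalized counts in DPP4+ cells at 6 °C, against 302, 358, 388, 363 and 393 at 22 °C. The groups were apart (log2 difference 1.33, SE 0.08, adjusted p = 3.7e-12, limma). Under the authors' scaling the cold level was near that of DPP4- cells, which averaged 913 ± 103 at 6 °C and 1055 ± 88.7 at 22 °C.

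The ZIP transporters of the SLC39 family bring zinc, and some of them iron or manganese, into the cytosol. In DPP4+ cells 6 of 10 were higher in the cold and 2 lower, where 23.5% and 22.6% of all genes were. Their median log2 difference was 0.21. Slc39a14, which also takes up iron that is not bound to transferrin, averaged 3755 ± 117 in DPP4+ cells at 6 °C and 2701 ± 324 at 22 °C (log2 difference 0.48, SE 0.08, adjusted p = 1.7e-05, limma). The zinc importer Slc39a6 averaged 1650.0 ± 61.2 and 1305 ± 81.4 (log2 difference 0.34, SE 0.05, adjusted p = 1.7e-05, limma). Of the 6 zinc exporters of the SLC30 family, 2 were higher and 4 did not pass. Slc30a1, the zinc exporter of the plasma membrane, averaged 278 ± 27.8 at 6 °C and 172 ± 11.9 at 22 °C (log2 difference 0.68, SE 0.12, adjusted p = 3.8e-05, limma).

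Iron, heme and copper carriers were called in both directions. Slc40a1 (Entrez 53945, chr1:45908070-45926532 on GRCm38), ferroportin, the exporter of cellular iron, had 8.62, 5.26, 10.7, 11.9 and 8.23 normalized counts in DPP4+ cells at 6 °C, against 31.7, 40.6, 26.1, 30.1 and 37.8 at 22 °C. The groups did not overlap, at a low level (log2 difference -1.81, SE 0.26, adjusted p = 4.3e-06, limma). The heme transporter Slc48a1 averaged 1058 ± 142 at 6 °C and 626 ± 36.2 at 22 °C (log2 difference 0.75, SE 0.08, adjusted p = 3.5e-08, limma). The copper importer Slc31a1 averaged 794 ± 37.0 and 568 ± 21.8 (log2 difference 0.48, SE 0.05, adjusted p = 4.1e-08, limma). Both mitochondrial iron importers rose, Slc25a37 (mitoferrin-1) with 615 ± 83.9 at 6 °C and 360.4 ± 12.3 at 22 °C and Slc25a28 (mitoferrin-2) with 345 ± 11.4 and 221 ± 17.5. The divalent metal transporter Slc11a2 (DMT1) did not pass, with 1318 ± 101 and 1178 ± 131.

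Of 15 tested genes of metal handling that are no solute carriers, 8 were higher and 3 lower in DPP4+ cells in the cold. Of all genes, 23.5% were higher and 22.6% lower. The median log2 difference of the 15 was 0.14. Those lower were Heph (-0.59), Steap4 (-0.48) and Aco1 (-0.18), while Mt1 (-0.01) and Mt2 (-0.13) did not pass. The transferrin receptor Tfrc, which brings in iron, averaged 671 ± 113 at 6 °C and 334 ± 33.3 at 22 °C (log2 difference 0.99, SE 0.11, adjusted p = 1.3e-07, limma). The ferritin light chain Ftl1, which stores iron, averaged 6452 ± 502 and 3517 ± 86.2 (log2 difference 0.87, SE 0.07, adjusted p = 4.9e-10, limma), and the heme oxygenase Hmox1, which releases iron from heme, 2913 ± 636 and 1779.6 ± 274 (log2 difference 0.69, SE 0.20, adjusted p = 0.0078, limma).

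**Figure D3:**
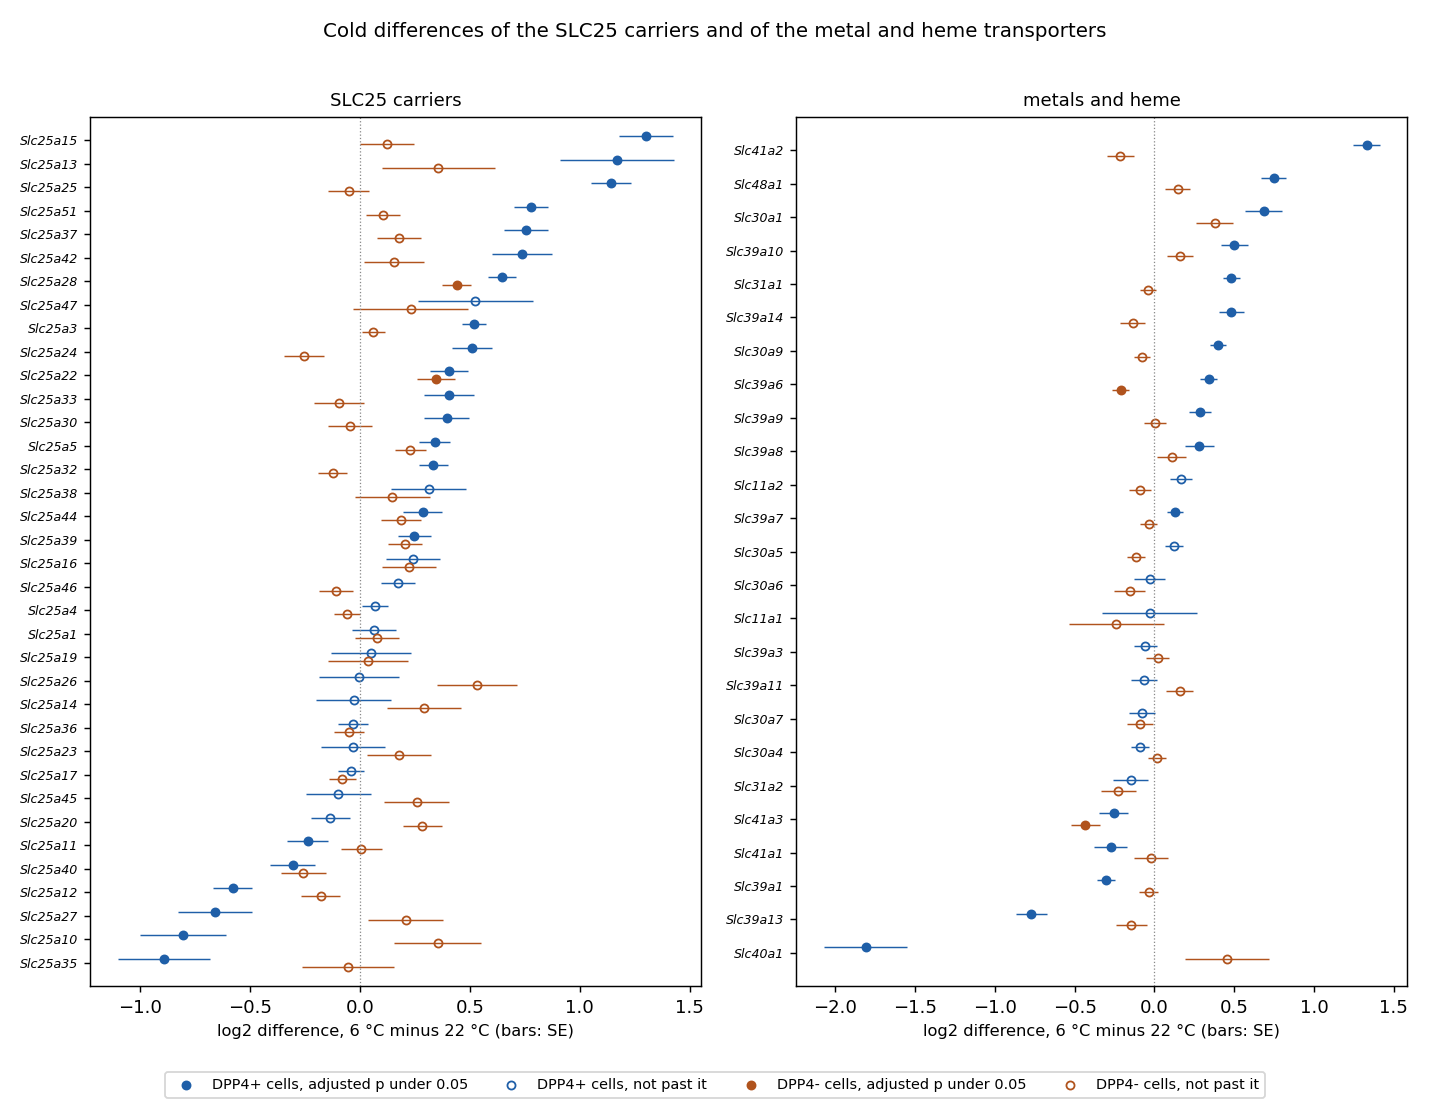
Log2 difference between 6 °C and 22 °C (x axis, bars are SE) of the 36 SLC25 carriers and the 25 metal and heme transporters in DPP4+ cells and DPP4- cells, with filled symbols where the adjusted p was under 0.05. In DPP4+ cells the SLC25 carriers run from -0.89 for Slc25a35 to 1.30 for Slc25a15, and the metal transporters from -1.81 for Slc40a1 to 1.33 for Slc41a2.

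Among the SLC25 carriers, Slc25a25 (Entrez 227731, chr2:32414487-32451470 on GRCm38) adjusts the adenine nucleotide pool of mitochondria in response to calcium. It had 793, 783, 708, 781 and 838 normalized counts in DPP4+ cells at 6 °C, against 337, 333, 406, 321 and 371 at 22 °C. The groups did not overlap (log2 difference 1.14, SE 0.09, adjusted p = 3.5e-10, limma). Under the authors' scaling the cold level was near that of DPP4- cells, which averaged 732 ± 59.2 at 6 °C and 765 ± 137 at 22 °C. Its relative Slc25a24, with the same transport activity, averaged 1144 ± 43.4 in DPP4+ cells at 6 °C and 802 ± 36.5 at 22 °C (log2 difference 0.51, SE 0.09, adjusted p = 5.7e-05, limma). Slc25a25 overlaps exons of Naif1 on the other strand by up to 379 bases, and Naif1 averaged 22.7 at 6 °C and 21.7 at 22 °C.

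Mitochondrial carriers of amino acids were called in both directions. The ornithine carrier Slc25a15 averaged 269 ± 37.8 in DPP4+ cells at 6 °C and 108 ± 3.79 at 22 °C (log2 difference 1.30, SE 0.12, adjusted p = 5.2e-09, limma). The aspartate-glutamate carrier Slc25a13 (citrin) averaged 100.5 ± 24.1 and 43.2 ± 6.37 (log2 difference 1.17). Neither Slc25a15 nor Slc25a13 overlapped between the temperatures. Slc25a13 was admitted by the DPP4+ libraries at 6 °C, so its rise is a description. The other aspartate-glutamate carrier, Slc25a12 (aralar), fell, with 250.1 ± 36.1 at 6 °C and 371 ± 15.9 at 22 °C and no overlap (log2 difference -0.58, SE 0.09, adjusted p = 1e-05, limma). The NAD+ importer Slc25a51 averaged 1098 ± 136 and 636 ± 25.9 (log2 difference 0.78, SE 0.08, adjusted p = 1.2e-08, limma).

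Of the carriers that serve oxidative phosphorylation, the phosphate carrier Slc25a3 averaged 2872 ± 99.4 in DPP4+ cells at 6 °C and 2002 ± 70.8 at 22 °C (log2 difference 0.52, SE 0.05, adjusted p = 2.7e-08, limma). The ADP/ATP carrier Slc25a5, which has near-identical pseudogenes that can share its reads and is uncertain for that reason, averaged 2036 ± 150.4 and 1604 ± 57.3 (log2 difference 0.34, SE 0.07, adjusted p = 0.00037, limma). The other abundant ADP/ATP carrier, Slc25a4, did not pass, with 2613 ± 70.4 and 2489.8 ± 104, nor did the citrate carrier Slc25a1, with 632 ± 56.8 and 604 ± 30.9. Summed over the 36 carriers, normalized counts were 17689.5 to 19211 in DPP4+ cells at 6 °C and 14768 to 15146 at 22 °C, against 13100.4 to 14668 in DPP4- cells at 6 °C and 12863 to 13646 at 22 °C.

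In the vitamin, sugar and organic ion classes the rises were carried by a few members. Slc23a2 (Entrez 54338, chr2:132052496-132145320 on GRCm38), the sodium-dependent vitamin C transporter SVCT2, had 2562, 2248, 2244, 2259 and 1769 normalized counts in DPP4+ cells at 6 °C, against 717, 733, 861, 797 and 822 at 22 °C. The groups were far apart, with library 5 again the lowest of the cold ones (log2 difference 1.49, SE 0.07, adjusted p = 5.3e-14, limma). The proton-coupled myo-inositol transporter Slc2a13 averaged 973 ± 131 and 396 ± 26.9 (log2 difference 1.29, SE 0.10, adjusted p = 5.2e-10, limma), while the sodium-coupled myo-inositol transporter Slc5a3 did not pass, with 658 ± 116 and 641 ± 31.4.

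Among the organic ion transporters, Slc22a23 (Entrez 73102, chr13:34179158-34345275 on GRCm38), an orphan of its family, had 58.6, 48.7, 46.6, 37.5 and 30.7 normalized counts in DPP4+ cells at 6 °C, against 4.35, 3.93, 3.62, 7.52 and 8.0 at 22 °C. It was low and did not overlap (log2 difference 2.83), and it averaged 17.1 ± 5.99 in DPP4- cells at 6 °C and 16.7 ± 8.26 at 22 °C. It reached the threshold of 20 only through the cold DPP4+ libraries, so this difference is a description. The ergothioneine transporter Slc22a4, whose reads close paralogs may share, averaged 99.99 ± 7.97 and 49.9 ± 6.61 (log2 difference 1.0, SE 0.13, adjusted p = 1.2e-06, limma). Slc6a2, which takes up noradrenaline, averaged 34.6 ± 5.60 and 22.4 ± 4.09 (log2 difference 0.60, SE 0.18, adjusted p = 0.0073, limma), with overlapping libraries.

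Among the lipid carriers, the choline transporter-like Slc44a2 had 491, 512, 458, 564 and 589 normalized counts in DPP4+ cells at 6 °C, against 1279.8, 1198, 1086, 1201 and 1148 at 22 °C. The groups did not overlap (log2 difference -1.18, SE 0.07, adjusted p = 5.2e-13, limma). Its relative Slc44a3 averaged 9.81 ± 4.12 and 30.3 ± 3.76, but its exons overlap A530020G20Rik on the other strand by up to 244 bases. That gene averaged 26.0 at 6 °C and 176 at 22 °C, and whether reads were shared was not tested. Of the 3 fatty acid transport proteins, 1 was lower, 1 higher and Slc27a3 did not pass (log2 difference -0.27). Slc27a1 averaged 75.6 ± 8.09 at 6 °C and 161 ± 8.34 at 22 °C (log2 difference -1.09, SE 0.11, adjusted p = 1e-08, limma), and Slc27a4 averaged 498 ± 43.5 and 372 ± 32.5 (log2 difference 0.42, SE 0.10, adjusted p = 0.00088, limma).

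Of the ion transporters, the sodium-proton exchanger Slc9a5 averaged 33.7 ± 9.73 in DPP4+ cells at 6 °C and 71.8 ± 10.7 at 22 °C (log2 difference -1.10, SE 0.20, adjusted p = 0.0001, limma). The chloride-bicarbonate exchanger Slc4a3 averaged 321 ± 28.0 and 494 ± 23.3 (log2 difference -0.62, SE 0.09, adjusted p = 6.3e-06, limma), and the sodium-calcium-potassium exchanger Slc24a3 averaged 49.9 ± 9.78 and 78.4 ± 5.78 (log2 difference -0.66, SE 0.12, adjusted p = 5.6e-05, limma). The phosphate importer Slc20a2 was higher, with 599 ± 80.4 and 429 ± 24.0 (log2 difference 0.47, SE 0.10, adjusted p = 0.00042, limma). The phosphate importer Slc20a1, the sodium-potassium-chloride cotransporter Slc12a2 and the sodium-bicarbonate cotransporter Slc4a4 did not pass, with log2 differences of 0.04, -0.10 and 0.11.

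In DPP4- cells the same exposure was followed by few calls. Limma called 5 of 175 members higher at 6 °C (2.86%, where 1.98% of all genes were) and 5 lower (2.86%, where 3.23% of all genes were). The median log2 difference was 0.01, against 0.00 for all genes tested. The split was 16 higher and 3 lower when libraries were scaled to equal totals, which set the median of all genes at 0.10, and 6 higher and 3 lower after quantile normalization.

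The clearest rises in DPP4- cells were those of Slc6a6 and Slc25a28. Slc6a6, the taurine transporter, had 627, 590.4, 553, 604 and 521 normalized counts in DPP4- cells at 6 °C, against 389, 434, 406, 421 and 420.5 at 22 °C. Mitoferrin-2, Slc25a28, had 339, 309, 351, 344 and 353 at 6 °C, against 240.4, 264, 234, 250.2 and 259.8 at 22 °C. Neither gene overlapped between the temperatures, with Slc6a6 at a log2 difference 0.48, SE 0.07, adjusted p = 0.00018, limma, and Slc25a28 at a log2 difference 0.44, SE 0.06, adjusted p = 0.00036, limma. Slc16a9 fell to 168 ± 25.0 at 6 °C, against 289 ± 44.3 at 22 °C (log2 difference -0.78, SE 0.16, adjusted p = 0.006, limma). Slc2a13 averaged 211 ± 23.9 and 296 ± 46.9 (log2 difference -0.48, SE 0.10, adjusted p = 0.0086, limma), and Slc41a3, a mitochondrial magnesium carrier, 195 ± 31.2 and 262 ± 21.9 (log2 difference -0.43, SE 0.09, adjusted p = 0.0073, limma).

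A further 4 calls in DPP4- cells depended on single libraries. They were the mitochondrial glutamate carrier Slc25a22 (log2 difference 0.35), the scaffold protein Slc9a3r2, which is no transporter (0.42), Slc38a10 of the glutamine carrier family (-0.22) and the zinc importer Slc39a6 (-0.21). The call of Slc25a22 was lost without DPP4- library 3 or 5 at 6 °C or 1 at 22 °C (0.30 to 0.31 without them), and that of Slc39a6 without library 3 or 5 at 6 °C or 2 or 3 at 22 °C (-0.20 to -0.18). That of Slc9a3r2 was lost without library 3, 4 or 5 at 6 °C or 1, 2, 3 or 5 at 22 °C (0.33 to 0.44). That of Slc38a10 was lost without library 1 or 3 at 6 °C, library 2, 4 or 5 at 22 °C, DPP4+ library 2 at 6 °C or DPP4+ library 4 at 22 °C (-0.22 to -0.16). The number of members called higher was 8 without DPP4+ library 5 at 6 °C, which enters the shared estimate of spread, 2 without DPP4- library 3 at 6 °C and 3 without DPP4- library 1 or library 5 at 22 °C.

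Of the 10 members called in DPP4- cells in either direction (where 5.22% of all genes were), 9 were also called in DPP4+ cells, where 95 were called in all (and 46.1% of all genes). Slc6a6, Slc25a28 and Slc25a22 were higher in the cold in both populations, and Slc16a9 and Slc41a3 lower in both. Slc6a6 rose in DPP4+ cells by a log2 difference of 0.25, which did not pass after quantile normalization (0.14). Slc39a6 and Slc2a13 were higher in DPP4+ and lower in DPP4- cells, and Slc9a3r2 was lower in DPP4+ and higher in DPP4- cells. For these 3 genes the difference between the cold effects, DPP4+ minus DPP4-, passed its own test, at 0.55 for Slc39a6, 1.77 for Slc2a13 and -1.38 for Slc9a3r2. For Slc6a6, Slc25a28 and Slc16a9 it did not pass, at -0.23, 0.21 and 0.15.

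Tested for every member, the cold effect was higher in DPP4+ than in DPP4- cells for 39 (22.3%, where 16.8% of all genes were) and lower for 32 (18.3%, where 16.4% of all genes were). Scaling to equal totals, under which the median of all genes was -0.13, moved the split to 22 higher and 47 lower. Positive differences led with Slc16a6 (3.85), Slc22a23 (2.75, admitted by its high group), Slc15a3 (2.05), Slc6a17 (2.03), Slc2a13 (1.77), Slc41a2 (1.54) and Slc23a2 (1.5). Negative ones led with Slc7a2 (-2.45), Slc40a1 (-2.26), Slc36a2 (-2.11), Slc1a6 (-2.01) and Slc1a3 (-1.70). Slc40a1 and Slc1a6 were also admitted by their high groups. By class, the cold effect was higher in DPP4+ cells for 10 of 25 metal transporters and lower for 3, for 11 and 5 of 36 SLC25 carriers, and for 4 and 10 of 32 amino acid transporters. In that order, the class medians of the difference were 0.18, 0.08 and -0.01 under the authors' scaling. With equal totals they were 0.03, -0.06 and -0.15.

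The populations differed in most members at either temperature, as they did in most of all genes tested. At 6 °C 64 of 175 members were higher in DPP4+ than in DPP4- cells (36.6%, where 38.5% of all genes were) and 73 lower (41.7%, where 35.7% of all genes were). At 22 °C 58 were higher (33.1%, where 38.7% of all genes were) and 73 lower (41.7%, where 36.2% of all genes were). The members' median log2 difference was -0.15 at 6 °C and -0.10 at 22 °C, against 0.03 for all genes at each temperature. These counts rest on the authors' scaling, under which normalized counts summed to between 10238368 and 12108410 in DPP4+ libraries and between 15434830 and 17267836 in DPP4- libraries. With equal totals the median of all genes was 0.50 at 6 °C and 0.64 at 22 °C, and the members' split was 97 higher and 42 lower at 6 °C and 111 and 37 at 22 °C. The called differences of the genes named below kept their direction under that scaling. That of Slc23a2 at 22 °C did not, with -0.45 under the authors' scaling and 0.17 with equal totals.

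SLC25 carriers were called higher in DPP4+ cells more often than lower, with 21 and 6 of 36 at 6 °C and 17 and 8 at 22 °C. Of all genes, 38.5% were higher and 35.7% lower at 6 °C, and 38.7% and 36.2% at 22 °C. Slc25a13 had 121, 97.3, 107, 117 and 60.6 normalized counts in DPP4+ cells at 6 °C, against 9.38, 6.82, 5.40, 3.76 and 5.76 in DPP4- cells at 6 °C. No library of either population came near the other (16.1-fold, log2 difference 3.82). Slc25a13 was admitted by the DPP4+ cells, so this difference is a description. The citrate carrier Slc25a1 averaged 604 ± 30.9 in DPP4+ and 302 ± 37.0 in DPP4- cells at 22 °C, and Slc25a24 802 ± 36.5 and 359.7 ± 59.8. Inorganic ion transporters were called lower more often, with 2 higher and 13 lower of 24 at 6 °C and 4 and 12 at 22 °C, but their medians of -0.43 and -0.35 became 0.04 and 0.26 with equal totals.

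**Figure D4:**
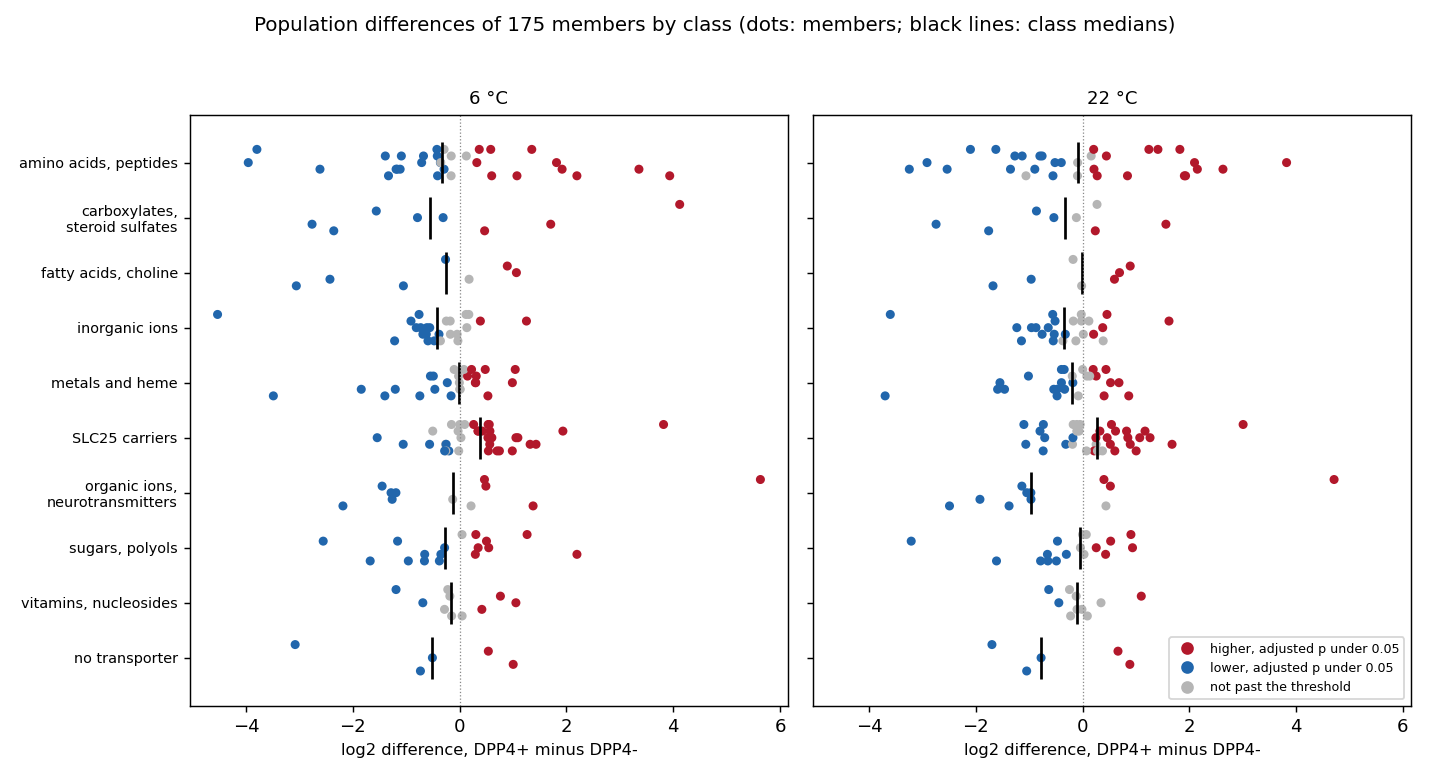
Log2 difference between DPP4+ and DPP4- cells (x axis) of each of the 175 members (dots, coloured where the adjusted p was under 0.05) by substrate class (y axis), at 6 °C and at 22 °C, with class medians as black lines. The dots run from -4.53 for Slc24a3 to 5.63 for Slc6a12 at 6 °C, and from -3.70 for Slc11a1 to 4.71 for Slc6a12 at 22 °C.

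Slc6a12 (Entrez 14411, chr6:121342574-121365773 on GRCm38), a transporter of betaine, an osmolyte, and of GABA, had the largest difference. It had 164, 193, 174, 188 and 315 normalized counts in DPP4+ cells at 6 °C, against 6.70, 4.09, 2.70, 1.88 and 1.65 in DPP4- cells at 6 °C. At 22 °C it had 109, 157, 206, 134 and 137 in DPP4+ cells, against 13.5, 3.0, 3.78, 3.07 and 3.86 in DPP4- cells. The populations did not overlap at either temperature (27.3-fold at 22 °C, log2 difference 4.71). Slc6a12 was admitted by the DPP4+ cells, so this difference is a description. Library 1 of the DPP4- cells at 22 °C stood above the others, and without it the fold was 43.4. The taurine transporter Slc6a6, another osmolyte carrier, averaged 1842 ± 148 in DPP4+ and 414 ± 17.2 in DPP4- cells at 22 °C (log2 difference 2.15, SE 0.07, adjusted p = 1.8e-18, limma). The amino acid transporters Slc1a6, Slc38a1 and Slc1a4 were 15.3-fold, 6.28-fold and 3.85-fold higher in DPP4+ cells at 22 °C. Slc1a6 and Slc38a1 were likewise admitted by the DPP4+ cells, so their differences are descriptions.

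Slc24a3 (Entrez 94249, chr2:145167775-145642166 on GRCm38), named above among the falls in DPP4+ cells, was the member furthest below in DPP4+ cells at 6 °C. At 22 °C it had 76.5, 75.3, 72.4, 80.8 and 87.2 normalized counts in DPP4+ cells, against 801, 1055, 1042, 1019 and 914 in DPP4- cells. The populations were far apart (log2 difference -3.60, SE 0.12, adjusted p = 4.4e-18, limma), 12.3-fold at 22 °C and 23.4-fold at 6 °C. Slc10a6, which takes up sulfated steroids, averaged 763 ± 117 in DPP4+ and 5089 ± 482 in DPP4- cells at 22 °C (log2 difference -2.74, SE 0.10, adjusted p = 1.5e-16, limma). The neutral amino acid exchanger Slc7a8 (LAT2) averaged 140.5 ± 9.19 and 820.5 ± 61.5, and the proline transporter Slc6a7 12.1 ± 3.25 and 95.8 ± 8.33. None of these 4 genes overlapped between the populations at 22 °C. Slc6a7 was admitted by the DPP4- cells, so its difference is a description.

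Several members lower in DPP4+ cells are also genes of other cell types. Slc1a3 averaged 204 ± 15.3 in DPP4+ and 880.4 ± 98.3 in DPP4- cells at 22 °C (log2 difference -2.10, SE 0.12, adjusted p = 1.1e-13, limma), and the Schwann cell markers, glia like those in which Slc1a3 is known, summed to 21.1 to 36.2 and 189 to 499 in the same libraries. Slc11a1, an iron and manganese carrier of macrophage phagosomes, averaged 2.96 ± 1.10 in DPP4+ and 49.5 ± 8.02 in DPP4- cells at 22 °C (log2 difference -3.70). The macrophage markers summed to 70.9 to 88.7 and 140 to 172 there. Slc11a1 was admitted by the DPP4- cells, so its difference is a description.

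Carriers of iron, creatine and noradrenaline were also among the members lower in DPP4+ cells. Slc11a2 (DMT1), which moves ferrous iron across plasma and endosomal membranes, averaged 1178 ± 131 in DPP4+ and 3232 ± 105 in DPP4- cells at 22 °C (log2 difference -1.46, SE 0.07, adjusted p = 5.5e-15, limma). The creatine transporter Slc6a8 averaged 1239.9 ± 39.7 and 2721 ± 161 (log2 difference -1.13, SE 0.06, adjusted p = 7.8e-14, limma), and the noradrenaline transporter Slc6a2 22.4 ± 4.09 and 135 ± 45.1 (log2 difference -2.49, SE 0.18, adjusted p = 7.6e-12, limma). The fatty acid transport protein Slc27a1 averaged 161 ± 8.34 and 519 ± 45.9 (log2 difference -1.68, SE 0.11, adjusted p = 8.4e-13, limma). The libraries of the populations did not overlap for these 4 genes. The other fatty acid transport proteins, Slc27a4 and Slc27a3, were higher in DPP4+ cells at 22 °C, also without overlap, by log2 differences of 0.69 and 0.60.

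For the members with the strongest cold effect, the population difference depended on temperature. Slc16a6 did not pass at 22 °C (log2 difference 0.27) and was 17.8-fold higher in DPP4+ cells at 6 °C (log2 difference 4.12, SE 0.18, adjusted p = 9.4e-16, limma). Slc7a2 did not pass at 6 °C (log2 difference -0.35) and was 4.14-fold higher in DPP4+ cells at 22 °C (log2 difference 2.10, SE 0.17, adjusted p = 9.9e-11, limma). Slc40a1 was called lower in DPP4+ cells at 6 °C (-1.40) and higher at 22 °C (0.86), and Slc22a23 higher at 6 °C (1.38) and lower at 22 °C (-1.38). Both were admitted by their high group, so their higher values there are descriptions. These values share their libraries with the difference of the cold effects given above.

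Between genes, levels were compared per kilobase of exon. By the mean over the 20 libraries the most abundant members were Slc43a3, a purine nucleobase transporter, with 2800.0 normalized counts per kilobase, Slc38a2 with 2799.6 and Slc1a5 with 1859. Slc43a3 and Slc38a2 did not pass the test for cold in either population. Slc38a2 had 2165 per kilobase in DPP4+ cells at 6 °C and 2034 at 22 °C, against 3467 in DPP4- cells at 6 °C and 3532 at 22 °C. Slc43a3 had 2799.7 and 2646 per kilobase in DPP4+ cells, against 2688 and 3067 in DPP4- cells, so it lay above Slc38a2 in DPP4+ cells and below it in DPP4- cells. Slc1a5 had 1131 and 1315 per kilobase in DPP4+ cells, against 2539 and 2449 in DPP4- cells.

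Carriers outside the symbol pattern were set beside the members as a list of 42 genes, of which 37 were tested, among them nucleotide sugar, organic anion, pyruvate and uncoupling carriers. In DPP4+ cells 15 were higher in the cold and 2 lower, with a median log2 difference of 0.07. Of all genes, 23.5% were higher and 22.6% lower. This list was chosen with earlier results of these data known. The mitochondrial carrier Ucp2, an uncoupling protein homologue, averaged 227 ± 49.4 in DPP4+ cells at 6 °C and 22.5 ± 4.92 at 22 °C (log2 difference 3.27, SE 0.26, adjusted p = 1.4e-09, limma). The prostaglandin transporter Slco2a1 averaged 3098 ± 293 and 1082 ± 107 (log2 difference 1.52, SE 0.12, adjusted p = 9.6e-10, limma). In DPP4- cells 3 of the listed genes were higher in the cold, where 1.98% of all genes were. Among them, the fatty acid translocase Cd36 averaged 6045 ± 1266 at 6 °C and 2355 ± 972 at 22 °C (log2 difference 1.47, SE 0.25, adjusted p = 0.0027, limma). Adipocytes also express Cd36, and in the same libraries their markers summed to 147 to 376 at 6 °C and 32.4 to 194 at 22 °C, with Plin1 at 129.6 ± 73.0 and 35.8 ± 21.0. Their part in the Cd36 values was not tested.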

How the data were processed

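Bulk RNA-seq of 20 libraries was deposited as a single table of normalized counts for 27179 genes, with Entrez IDs and symbols. The deposited values are a signal unit, gene counts divided by 1 factor per library by the authors: all of the values became whole reads (within 0.1) when multiplied back. The submitters' processing notes name DESeq2 1.6.3, featureCounts 1.4.6, HISAT2 2.0.1 and Trim Galore 0.4.1, with the builds GRCm38 and mm10. The annotation and the use of strand are not given in the sources used here.

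The main test was limma 3.58.1 in R 4.3.3 on log2(normalized count + 1), with 4 group means, 5 contrasts, an intensity trend and robust variances, on 13057 genes with a mean of at least 10. The Benjamini-Hochberg adjustment ran over the genes of a contrast, and calls needed an adjusted p under 0.05. Fold changes in words are ratios of group means. Log2 differences are on the log2(value + 1) scale, which understates the change of low genes. Depth was 8487790 to 18753821 assigned reads per library. All 175 members passed the filter. Alternatives were edgeR 4.0.16 quasi-likelihood and DESeq2 1.42.0 tests on the recovered whole reads, equal totals, quantile normalization, other pseudocounts and filters, a replicate block, sample weights, only the groups compared, and each library left out. The script was tested on simulated data.

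Members, classes and lists were chosen with earlier results of these data known. Named genes were, per contrast, the 8 largest rises and 8 largest falls past the threshold whose higher group averaged at least 50 and, for 2-group contrasts, whose libraries did not overlap. Further ones were, per class, the member with the highest mean and that with the smallest p per contrast, and a short list of well known carriers. Slc11a1, Slc20a2, Slc25a12, Slc25a22, Slc25a35, Slc25a36, Slc25a37, Slc25a51, Slc27a3, Slc31a1 and Slc48a1 were chosen after their values were seen. A gene that the rule names is not reported here. Exon lengths and overlaps come from GENCODE on GRCm38, and promoters from RefSeq on GRCm38.p6. Replicate numbers were checked for pairing by the correlation of same-numbered libraries across populations.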

Additional observations from a re-analysis of the deposited data

Results flagged for a closer look

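Of 256 groups of 5 libraries checked for 64 named genes, 21 held a library further from the others than Dixon's 95% critical value allows, where chance gives about 1 in 20 groups. Library 5 of the DPP4+ cells at 6 °C accounted for 6 of these, as the lowest for Slc16a6 (375), Slc5a3 (455), Slc30a1 (229.6) and Slc31a1 (728) and as the highest for Slc6a12 (315) and Slc6a7 (16.5). Library 1 of the DPP4- cells at 22 °C accounted for 4, as the highest for Slc6a12 (13.5) and Slc20a1 (1677) and the lowest for Slc25a5 (1449) and Slc25a51 (525). In the other DPP4+ groups, library 3 at 22 °C was the lowest for Slc9a3r2 (80.3) and the highest for Slc20a1 (1066), and library 4 at 22 °C the highest for Slc25a5 (1706). In DPP4- cells at 6 °C, library 1 was the lowest for Slc38a10 (4226) and the highest for Slc6a7 (139) and Slc27a3 (134), library 2 the highest for Slc38a1 (30.0) and library 5 the highest for Slc25a24 (374). In DPP4- cells at 22 °C, library 3 was the highest for Slc6a17 (59.2), library 4 the lowest for Slc11a1 (35.3) and library 2 the lowest for Slc12a2 (390.3).

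Named genes were in part picked by limma's test of the difference between the cold effects, so how many pass it reflects that choice. Of all genes, 16.8% passed it as higher and 16.4% as lower. For 38 of the 64 named genes the cold effect differed between the populations in this test, given here as DPP4+ minus DPP4- on the log2 scale. It was positive for Slc16a6 (3.85), Slc22a23 (2.75), Slc15a3 (2.05), Slc6a17 (2.03), Slc2a13 (1.77), Slc41a2 (1.54), Slc23a2 (1.5), Slc43a2 (1.2), Slc25a25 (1.19), Slc25a15 (1.18), Slc25a24 (0.76), Slc25a51 (0.67), Slc22a4 (0.66), Slc39a14 (0.62), Slc48a1 (0.60), Slc25a37 (0.58), Slc39a6 (0.55), Slc31a1 (0.52), Slc25a3 (0.46), Slc20a2 (0.41), Slc27a4 (0.37) and Slc11a2 (0.26). It was negative for Slc7a2 (-2.45), Slc40a1 (-2.26), Slc36a2 (-2.11), Slc1a6 (-2.01), Slc1a3 (-1.70), Slc44a3 (-1.47), Slc27a1 (-1.38), Slc9a3r2 (-1.38), Slc38a6 (-1.24), Slc6a7 (-1.05), Slc44a2 (-1.03), Slc24a3 (-0.93), Slc9a5 (-0.75), Slc4a3 (-0.47), Slc25a12 (-0.40) and Slc1a5 (-0.27). For 6 of these genes the difference did not pass when a single library was left out, which held for 15 libraries for Slc11a2 (0.20 to 0.27), 14 for Slc9a5 (-0.79 to -0.60), 13 for Slc6a7 (-1.06 to -0.85), 10 for Slc1a5 (-0.26 to -0.24), 10 for Slc27a4 (0.30 to 0.37) and 5 for Slc20a2 (0.35 to 0.38). Slc22a23, Slc40a1 and Slc1a6 were admitted by their high groups, so their differences are descriptions.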

How the results depend on the processing

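In DPP4- cells the count of members higher in the cold was 5 in the test reported, 16 with equal totals, 3 with only the groups compared, 3 with sample weights and 9 with DESeq2, and the count lower was 5, 3 with equal totals, 3 after quantile normalization, 3 with only the groups compared and 8 with DESeq2. Equal totals gave 22 members with a higher cold effect in DPP4+ than in DPP4- cells (39 in the test reported), and, between the populations, 111 members higher in DPP4+ cells and 37 in DPP4- cells at 22 °C (58 and 73) and 97 and 42 at 6 °C (64 and 73). Slc23a2 at 22 °C reversed with equal totals, from -0.45 to 0.17. Beyond the shift of all genes that equal totals bring, the cause was not tested. Without 1 library, the counts higher and lower ranged over 47 to 52 and 39 to 47 for cold in DPP4+ cells, 2 to 8 and 4 to 7 for cold in DPP4- cells, 33 to 39 and 26 to 35 for the difference of the cold effects, 54 to 60 and 72 to 76 for the populations at 22 °C, and 62 to 65 and 70 to 76 at 6 °C.

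Same-numbered libraries of the populations correlated by 0.017 to 0.156 in their deviations, with 10 of 10 positive and 4 over 0.1, and differently numbered ones by -0.156 to 0.0508. Of the 20 libraries, 13 correlated best with their own number. The labels give no pairing and not every pair was over 0.1, so the numbers were not taken to pair the libraries, although these values are a hint that they may. With the replicate number as a block, 52 members were higher and 46 lower in DPP4+ cells in the cold, 4 and 5 in DPP4- cells, 39 and 31 for the difference of the cold effects, 58 and 74 for the populations at 22 °C and 64 and 73 at 6 °C, and the call of Slc9a3r2 in DPP4- cells was lost. Within a temperature, the block gave 38 and 32 for the difference, 56 and 76 at 22 °C and 64 and 74 at 6 °C. Slc38a1, which did not pass for cold in DPP4+ cells, passed under several alternatives (0.85 to 1.08). Slc44a3 at 22 °C (-0.37 with equal totals) and Slc38a2 between populations (-0.11 at 22 °C and -0.13 at 6 °C after quantile normalization) did not pass there. With 5 libraries a group and low counts, differences of members near the threshold of 20 are the least precise.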
